A study of Mus musculus with 16 samples.

Results

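The 39 genes described here encode chromatin and transcription regulators that have been linked to autism or intellectual disability. They were taken as a fixed list of gene symbols that leaves out the subunits of SWI/SNF, the chromatin remodelling complex to which ARID1B belongs. All 39 were found by Ensembl identifier among all genes of the deposited table, numbering 18424,, and all 39 passed the filter on low values in every comparison. RNA was sequenced from the medial prefrontal cortex of 16 male C57BL/6N mice at postnatal day 120 (P120). Wild-type (WT) mice were compared with mice heterozygous (HT) for a CRISPR deletion of exon 5 of Arid1b in every cell, which truncates the protein. Both came from Arid1b+/- fathers and WT mothers. From P3 to P21 the pups received fluoxetine (Flx), a selective serotonin reuptake inhibitor, or vehicle (Veh) through the milk of dams that drank 0.2% saccharin water with or without fluoxetine at 0.1 mg/ml, and after weaning all mice drank normal water. The 4 groups (WT-Veh and WT-Flx, and likewise HT-Veh and HT-Flx) held 4 mice each, and the blood level of the drug in the pups was not measured.

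These proteins act on the packing and reading of DNA. CHD remodellers slide or evict nucleosomes, SET domain enzymes methylate histones, demethylases remove these marks, CBP and p300 and the KAT6 enzymes acetylate histones, and corepressors and Mediator subunits carry signals from DNA-binding factors to RNA polymerase II. Loss of 1 copy of most of them causes a neurodevelopmental disorder in humans. The comparisons here ask whether their mRNA differed in the adult cortex of Arid1b heterozygotes or after early fluoxetine.

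The values were normalized read counts, that is, estimated reads per gene divided by a normalization factor, and their reads could not be recovered, so the sequencing depth is unknown. Totals of the normalized counts per mouse ranged from 26718751 to 29902419. The glutamatergic cortical markers Slc17a7, Camk2a, Tbr1, Cux2, Neurod6, Rorb and Fezf2 were present in all 16 libraries, and the lowest value was 529, for Fezf2. Among vehicle mice Arid1b was 2368 ± 432 (SD, n = 4) in WT and 1795 ± 160 in HT, and among fluoxetine mice it was 2159 ± 233 in WT and 1636 ± 61.0 in HT, and its log2 difference between HT and WT over both treatments was -0.39 ± 0.08 (SE; limma, adjusted p = 0.124). No HT-Flx mouse reached the lowest WT-Flx mouse, whereas the WT-Veh mouse 1, at 1787, lay inside the HT-Veh range of 1619 to 2005. A score of 10 olfactory bulb markers (mean log2(value + 1)) was more than 2 above its lowest value in 5 libraries, namely WT-Veh 1, WT-Flx 1, 2 and 4 and HT-Veh 4, and ranged from 4.88 to 9.49 in WT-Veh mice and 4.89 to 7.84 in HT-Veh mice, and from 5.62 to 9.17 and 4.75 to 5.45 in WT-Flx and HT-Flx mice, respectively. Fits adjusted for this score or without these libraries were also made. In bulk tissue, fewer cells of a type and less RNA per cell cannot be told apart.

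The genes are written in very long transcripts. The longest annotated transcript of each had a median length of 8350 bases (4410 to 16470), compared with 3204 bases over 17554 genes, and 33 of the 39 fell in the longest eighth of all genes, above 6091 bases. Promoter windows of RefSeq (GRCm38.p6), which run from 250 bases before to 50 bases after a transcription start, were at hand for 27 of the 39 genes, in 35 windows. A GC box, searched as GGGCGG on both strands, occurred in 28 of these 35 windows (80%) and in 35.7% of all 32851 windows of the same length. The median number of CpG dinucleotides was 30 in the members' windows and 7 over all windows. The letters TATAAA occurred in 1 of the 35 windows (2.86%), compared with 13.6% of all windows, and CCAAT occurred in 31.4% and 37.4%, respectively. The letters of these motifs are a description and do not show that a factor binds.

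The upstream stretches are shown for 3 of the 4 members with an unadjusted p under 0.05 (limma) between HT-Flx and WT-Flx mice. Setd2 changed in one direction and Tcf20 and Med13l in the other. No stretch is shown for Bcl11a, the remaining member, which had the smallest p. Capitals mark GC boxes on either strand, bases in annotated exons were left out, and each stretch is written 5′ to 3′ on the gene's own strand.
Setd2 (chr9:110532347-110532596, plus strand, directly before the gene): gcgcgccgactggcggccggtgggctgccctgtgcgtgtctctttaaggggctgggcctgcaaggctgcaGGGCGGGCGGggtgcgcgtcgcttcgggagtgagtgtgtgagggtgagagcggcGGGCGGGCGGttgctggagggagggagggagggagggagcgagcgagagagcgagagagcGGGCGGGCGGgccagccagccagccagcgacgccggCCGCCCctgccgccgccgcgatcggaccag
Tcf20 (chr15:82912135-82912384, minus strand, before a RefSeq start that lies within the GENCODE gene, intronic there): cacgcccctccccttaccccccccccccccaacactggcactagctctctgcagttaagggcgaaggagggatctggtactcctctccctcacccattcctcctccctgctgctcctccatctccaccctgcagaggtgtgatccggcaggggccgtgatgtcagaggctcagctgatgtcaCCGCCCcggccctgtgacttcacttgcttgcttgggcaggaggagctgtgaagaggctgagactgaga
Med13l (chr5:118560469-118560678, plus strand, directly before the gene): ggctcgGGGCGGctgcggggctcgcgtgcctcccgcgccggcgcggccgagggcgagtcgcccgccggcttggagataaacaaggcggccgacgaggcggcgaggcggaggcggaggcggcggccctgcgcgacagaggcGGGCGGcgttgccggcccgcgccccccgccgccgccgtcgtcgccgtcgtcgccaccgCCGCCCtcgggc
The Setd2 stretch held 7 GC boxes and 31 CpG dinucleotides, the Med13l stretch 3 and 44, and the Tcf20 stretch 1 and 6. GC boxes that overlap each other were counted separately, so 1 run of capitals in the Setd2 stretch can hold more than 1 box.

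The regulators were expressed above most genes of this tissue. Per kilobase of the longest transcript, the median over the 39 genes was 291 normalized counts, compared with 134 over 17554 genes, and 36 of the 39 lay above that all-gene median. Chd3, a nucleosome remodelling subunit of the NuRD complex, was highest at 2510 ± 221 per kb (SD, n = 16 mice). Tcf4, the basic helix-loop-helix factor of Pitt-Hopkins syndrome, followed at 1087 ± 147, and then Ankrd11, a chromatin-bound coregulator, at 877 ± 87.5, Cic, the repressor downstream of receptor tyrosine kinases, at 765 ± 77.7, and Setd5, a SET domain protein, at 600 ± 92.2. Ankrd11 and Cic differed by less than the sum of their SDs, whereas Chd3 lay above all others in every mouse. The lowest were Asxl3, a scaffold of the H2A deubiquitinase, at 34.6 ± 5.49, Chd7, the remodeller of CHARGE syndrome, at 45.4 ± 14.7, and Setbp1, at 118 ± 19.4, and these 3 alone lay below the all-gene median.

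Between these ends, the levels per kb were grouped closely. Wac, an adaptor for histone H2B ubiquitination, was 579 ± 79.7, Trip12, a HECT ubiquitin ligase, 573 ± 50.9, and Kmt2e, a SET domain protein that reads H3K4 methylation, 533 ± 93.0. The neuronal repressor Bcl11a was 468 ± 62.3, the H3K36 methyltransferase Ash1l 464 ± 76.4, the H3K4 methyltransferase Kmt2a 421.5 ± 89.3, the Mediator kinase module subunit Med13l 409 ± 72.5, and the forkhead factor Foxp1 and the coregulator Tcf20 each 405, with SDs of 77.1 and 66.8. Neighbours in this order differed by less than the sum of their SDs, whereas genes at its ends, such as Trip12 and Tcf20, differed by more. The remaining levels ran downward from Chd8 (380), Phf12 (379), Nsd1 (367), Adnp (310), Kat6b (293), Tbl1xr1 (291), Setd2 (274), Pogz (269) and Med13 (261) through Tlk2 (250), Ep300 (249), Kat6a (240), Kmt5b (236), Kmt2c (235), Crebbp (233), Naa15 (232) and Phf21a (211) to Mbd5 (208), Kdm5b (203), Chd2 (192), Ehmt1 (159) and Kdm6b (135), all as mean normalized counts per kb over 16 mice.

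**Figure D1:**
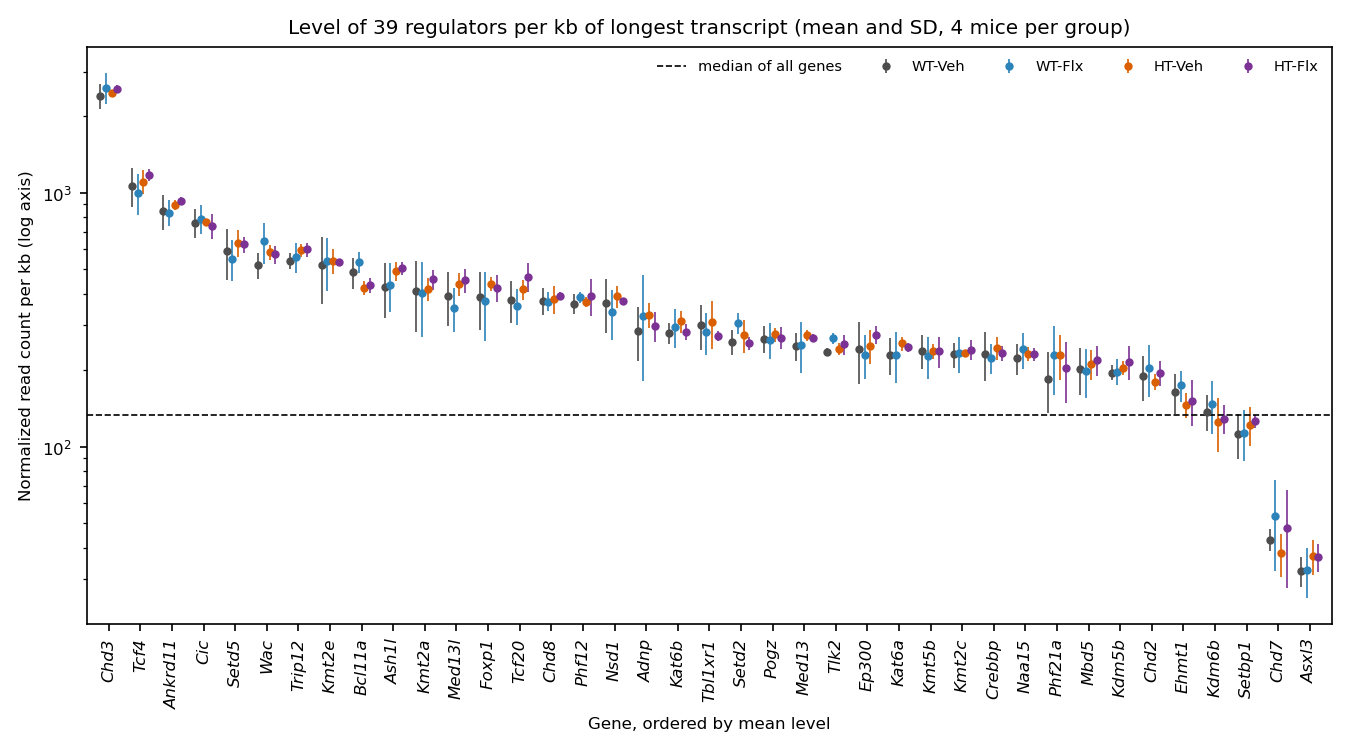
Mean normalized read count per kb of the longest transcript for the 39 regulators (log axis), with 4 points per gene for the 4 groups and bars for the SD over 4 mice. Chd3 lies above all others, Chd7 and Asxl3 lie far below the dashed median of all genes (134), and the 4 groups of a gene lie within each other's bars for most genes.

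Variation between mice was largest for Chd7, whose values ran from 231 to 786 normalized counts over the 16 mice (coefficient of variation 32.3%), followed by Adnp (803 to 2521, 25.4%) and Phf21a (763 to 1987, 25.2%). Tlk2, a kinase of the histone chaperone ASF1, varied least, from 1240 to 1563 (7.44%), followed by Chd3 (15587 to 21961, 8.79%), Trip12 (4508 to 6194, 8.88%) and Chd8 (2645 to 3733, 9.04%). Much of the variation was shared. Over the 16 mice, the 741 pairs of members had a median Pearson correlation of 0.54 and 74.9% of the pairs were above 0. The points share libraries and their normalization, and leaving out the mice WT-Veh 1 and WT-Flx 1 lowered the median correlation to 0.17 over 14 mice, with 64.4% of the pairs above 0.

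Those mice carried low values for most of the list. In both of them together, 32 of the 39 members were below their own 16-mouse median, and 25 (64.1%) were lower in both than in any of the other 14 mice, compared with 13.5% of all 17567 genes tested and 46.4% of the 2193 genes with the longest transcripts. Kmt2a was 3661 in WT-Veh 1 and 3546 in WT-Flx 1, compared with 5821 to 8323 in the other 14 mice. Ash1l was 3134 and 3617, compared with 4753 to 6217 in the others. Med13l was 2334 and 2463, compared with 3141 to 4785, so that none of these 3 genes overlapped between those mice and the remainder. The median deviation of the 39 members was -0.39 (log2) in WT-Veh 1 and -0.41 in WT-Flx 1 and lay between -0.12, in HT-Veh 4, and 0.11, in WT-Flx 2, in the other 14 mice. Setd2, Chd3, Cic, Bcl11a and Ehmt1 were higher than their medians in both, with Cic, at 7420 and 7701, above all 14 other mice (5157 to 6789), while Kdm6b and Tlk2 went in opposite directions in these mice.

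The same mice were low for long transcripts in general. Over the 2193 genes in the longest eighth, the median deviation was -0.34 in WT-Veh 1 and -0.35 in WT-Flx 1 and between -0.10 and 0.07 in the other 14 mice. Over the shortest eighth, up to 1434 bases, it was 0.28 and 0.26 in these mice and between -0.09 and 0.03 in the others. Scores of cytoplasmic ribosomal protein genes were highest in these mice, at 11.4 and 11.3 compared with 10.7 to 11.1 elsewhere, scores of oxidative phosphorylation genes were 10.8 and 10.7 compared with 10.2 to 10.5, and scores of 8 nuclear long RNAs were lowest, at 13.4 and 13.5 compared with 13.8 to 14.2. The part of transcript length in the members' values was not tested as a cause, but each group comparison is given both as deposited and after each library's trend on transcript length had been removed.

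**Figure D2:**
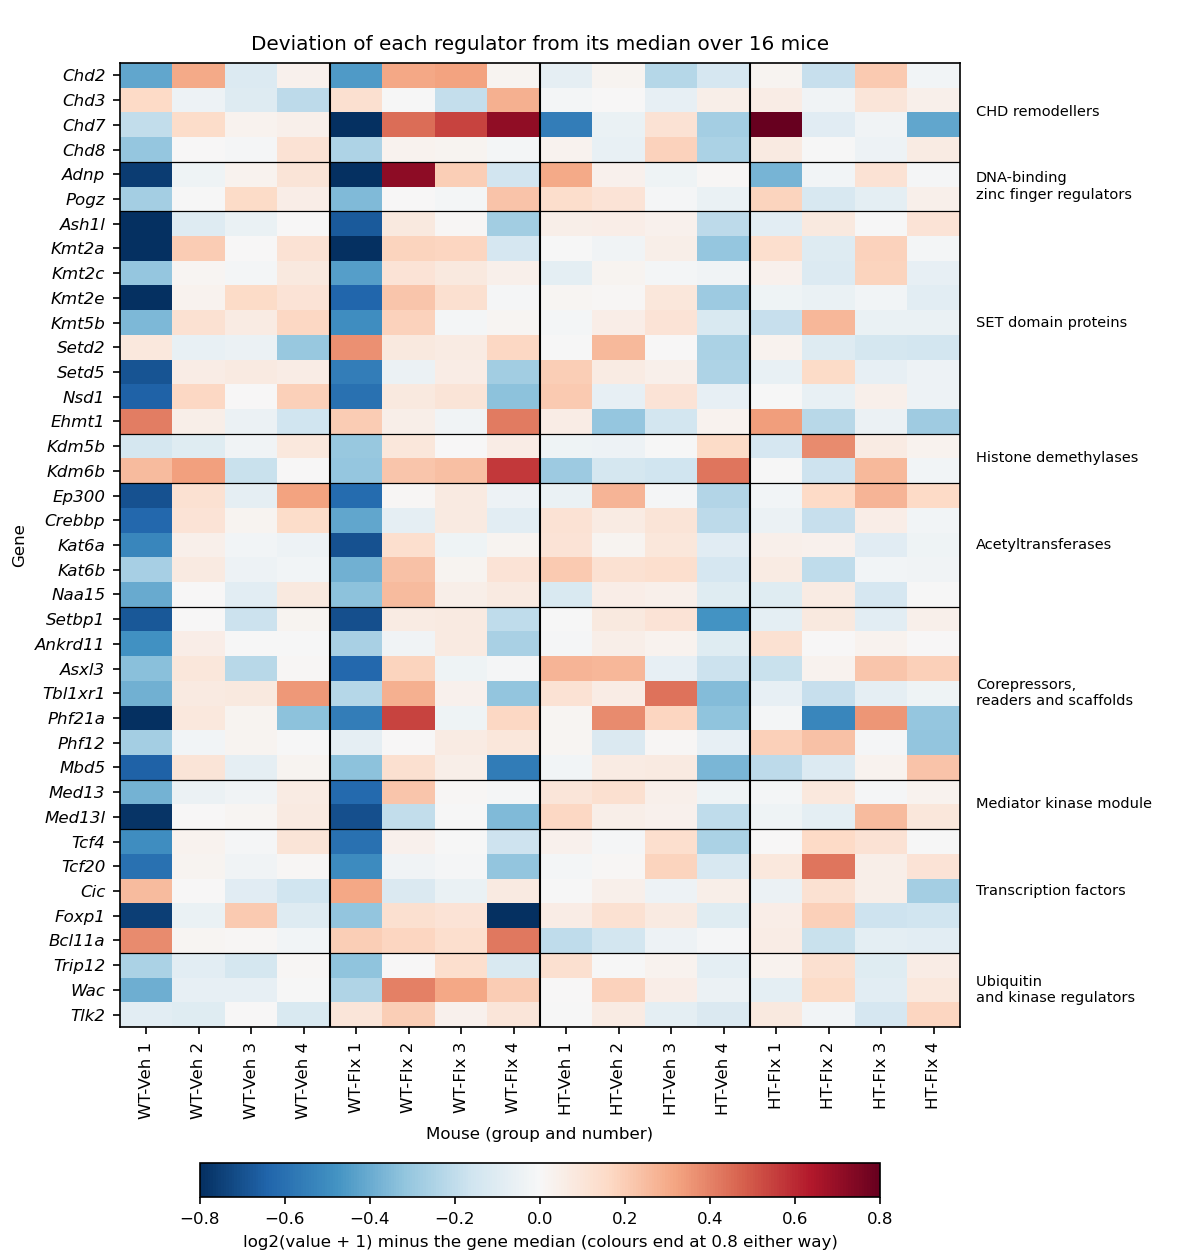
Log2 deviation of each of the 39 regulators (rows, by role) from its median over 16 mice (columns, by group), with colours ending at 0.8 in either direction. The columns WT-Veh 1 and WT-Flx 1 are blue for most genes, with Setd2, Ehmt1, Cic, Bcl11a and Chd3 red in both.

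**Figure D3:**
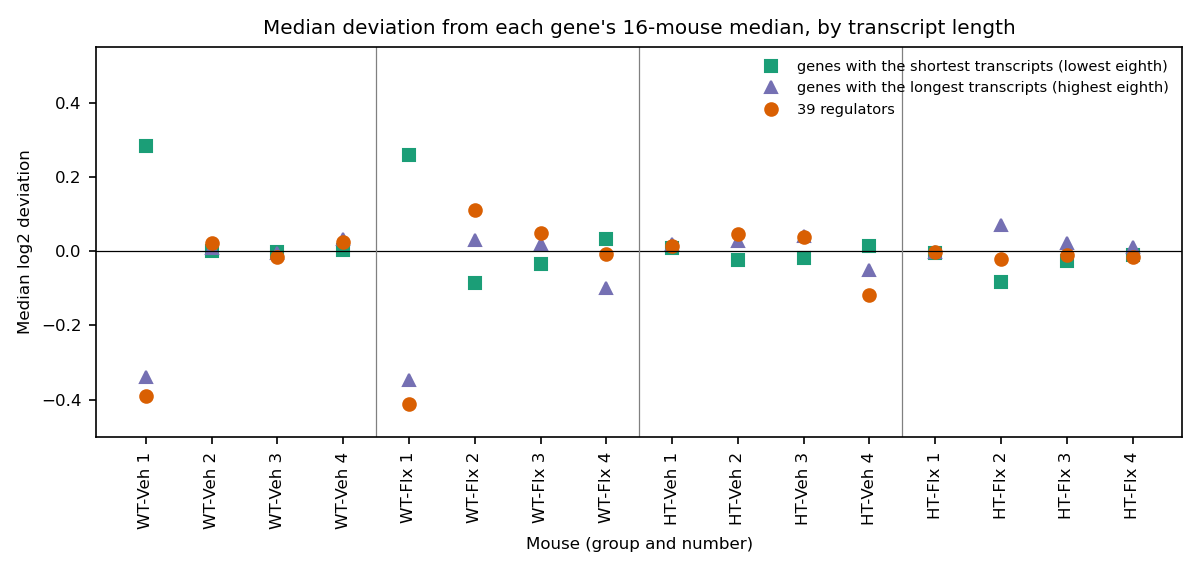
Median log2 deviation per mouse for genes with transcripts in the shortest eighth (squares), the longest eighth (triangles) and the 39 regulators (circles). In WT-Veh 1 and WT-Flx 1 the regulators (-0.39 and -0.41) lie beside the long transcripts (-0.34 and -0.35) and opposite the short ones (0.28 and 0.26), while in the other mice the regulators lie between -0.12 and 0.11.

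In vehicle-treated mice, no regulator differed between genotypes past the adjusted threshold. Between HT-Veh and WT-Veh mice, 0 of 39 members passed an adjusted p of 0.05 (limma with Benjamini-Hochberg adjustment, smallest adjusted p = 0.922), compared with 0.0178% of 16832 genes, and 0 of 39 had an unadjusted p under 0.05, compared with 4.88%. The groups were without overlap for 0 members, compared with 3.84% of genes. Of the 39 log2 changes, 34 were above 0 and the median was 0.09, compared with 51.8% above 0 and a median of 0.01 over all genes and with 76.9% above 0 and a median of 0.09 over the 2173 tested genes with the longest transcripts. Without WT-Veh 1 the members' median was -0.03, with 16 of 39 above 0, and after removal of the length trend it was -0.01, with 18 of 39 above 0. All 95% intervals lay within 1 log2 unit of 0 and 27 of 39 within 0.5. In a fit adjusted for the bulb score, 8 of 39 had an unadjusted p under 0.05 (limma, smallest adjusted p = 0.278), compared with 10.5% of all genes. Of these, Bcl11a was lower in HT-Veh and Wac, Ash1l, Phf21a, Med13, Kat6a, Trip12 and Kat6b were higher. The score was 9.49 in WT-Veh 1, 7.84 in HT-Veh 4 and 4.88 to 5.43 in the other vehicle mice, so this adjustment rests largely on those named mice.

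The members with the smallest p-values in this comparison were Bcl11a and Wac. Bcl11a (chr11:24078056-24174123), a zinc finger repressor of cortical projection neurons, was 3527, 2738, 2731 and 2667 in WT-Veh and 2356, 2443, 2631 and 2687 in HT-Veh. All but 1 HT-Veh mouse were below all WT-Veh mice, and the log2 change was -0.20 ± 0.10 (limma, adjusted p = 0.922), or -0.10 without WT-Veh 1. Wac was 2241, 2808, 2811 and 2926 in WT-Veh and 2949, 3338, 3049 and 2844 in HT-Veh, with a log2 change of 0.18 ± 0.09 (limma, adjusted p = 0.922), or 0.09 without WT-Veh 1. By role, all 5 acetyltransferase-group members (Ep300, Crebbp, Kat6a, Kat6b and the N-terminal acetyltransferase subunit Naa15) had changes above 0, of 0.07 to 0.17, as did all 7 corepressors, readers and scaffolds (0.03 to 0.33), with Phf21a, a BHC80 reader of unmethylated H3K4, at the upper end with an SD of 316 in WT-Veh and 287 in HT-Veh. Without WT-Veh 1, 2 of these 5 and 2 of these 7 were above 0. The 4 CHD remodellers were divided, with Chd7 at -0.19 and Chd2 at -0.06 and Chd3 and Chd8 at 0.04 and 0.03.

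After early fluoxetine in HT mice, no regulator differed past either threshold. Between HT-Flx and HT-Veh mice, 0 of 39 members passed the adjusted threshold (limma), as did 0 of 16814 genes (0%), and 0 of 39 had an unadjusted p under 0.05, compared with 3.07% of all genes. The groups overlapped for every member, whereas 1.99% of all genes had no overlap. The median member change was 0.03, with 21 of 39 above 0, and 37 of the 39 intervals lay within 0.5 of 0. Over all genes the median was 0.00, with 51.2% above 0. After removal of the length trend the members' median was 0.003, with 20 of 39 above 0. Adjusted for the bulb score, 4 of 39 had an unadjusted p under 0.05, compared with 3.65% of all genes, and the median was -0.03 with 15 of 39 above 0. The score was 7.84 in HT-Veh 4 and 4.75 to 5.45 in the other HT mice, so this adjustment rests largely on 1 mouse. Tcf20 had the smallest p, with 3023, 3076, 3459 and 2799 in HT-Veh and 3250, 4122, 3166 and 3303 in HT-Flx, a log2 change of 0.16 ± 0.09 (limma, adjusted p = 1.00). HT-Flx 2 lay well above the other mice, and the change was 0.07 without it. Kat6b, a MYST family H3 acetyltransferase, was 2611, 2447, 2471 and 2057 in HT-Veh and 2355, 1960, 2216 and 2209 in HT-Flx, a change of -0.13 ± 0.09 (adjusted p = 1.00) that ranged from -0.20 to -0.08 as each mouse was left out. All 4 CHD remodellers had changes above 0, from 0.05 for Chd3 and Chd8 to 0.27 for Chd7, whose HT-Flx values of 786, 408, 427 and 326 overlapped the HT-Veh values of 297 to 472.

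In WT mice, Setd2 and Tlk2 were the members with an unadjusted p under 0.05 after fluoxetine, and neither passed the adjusted threshold. Between WT-Flx and WT-Veh mice, 0 of 39 members passed the adjusted threshold (limma), as did 0 of 16833 genes (0%), and 2 of 39 had an unadjusted p under 0.05 (5.13%), compared with 4.2% of all genes. Setd2 (chr9:110532597-110618633), the enzyme that trimethylates H3K36, was 2411, 2182, 2196 and 1838 in WT-Veh and 2922, 2400, 2374 and 2551 in WT-Flx, a log2 change of 0.25 ± 0.11 (adjusted p = 1.00). Tlk2 (chr11:105178807-105283959) was 1287, 1273, 1367 and 1251 in WT-Veh and 1457, 1563, 1395 and 1458 in WT-Flx, a log2 change of 0.18 ± 0.08 (adjusted p = 1.00). Tlk2 was the 1 member whose groups did not overlap, compared with 2.89% of all genes. For Setd2, WT-Flx 1 lay above and WT-Veh 4 below the other mice of their groups, and its change ranged from 0.18 to 0.31 as each mouse was left out. Neither gene kept an unadjusted p under 0.05 when the fit was adjusted for the bulb score (0.20 for Setd2 and 0.17 for Tlk2). Setd2 did not keep it after removal of the length trend (0.27 ± 0.18). Without the 5 libraries with a high score, which leaves 1 WT-Flx mouse, the changes were 0.20 for Setd2 and 0.11 for Tlk2. Over the list, 21 of 39 changes were above 0 with a median of 0.01, compared with 49.8% above 0 over all genes. The median was -0.09 without WT-Veh 1 and 0.12 without WT-Flx 1. When adjusted for the bulb score it was 0.10, with 36 of 39 above 0. In that fit the median was 0.06 over the longest eighth of transcripts and 0.01 over all genes. After removal of the length trend the members' median was 0.05, with 27 of 39 above 0.

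Between fluoxetine-treated mice, 4 regulators differed by genotype at an unadjusted p, in both directions. In HT-Flx compared with WT-Flx mice, 0 of 39 passed the adjusted threshold (limma, smallest adjusted p = 0.346), compared with 0.0417% of 16788 genes, and 4 of 39 had an unadjusted p under 0.05 (10.3%), which is close to the 10.4% of all genes. Bcl11a, Tcf20 and Setd2 had no overlap between groups, that is, 3 of 39 compared with 5.83% of all genes. Adjusted for the bulb score, 0 of 39 had an unadjusted p under 0.05, compared with 2.22% of all genes. The score did not overlap between these groups (5.62 to 9.17 in WT-Flx and 4.75 to 5.45 in HT-Flx mice). The adjusted fit therefore cannot separate the score from genotype. Bcl11a was 3104, 3056, 2973 and 3635 in WT-Flx and 2825, 2395, 2562 and 2551 in HT-Flx, a log2 change of -0.30 ± 0.09 (adjusted p = 0.346). Every HT-Flx mouse was below every WT-Flx mouse. The change was -0.14 ± 0.15 (SE) once adjusted for the olfactory bulb score and -0.38 ± 0.10 after removal of the length trend. Setd2 was 2314, 2114, 2060 and 2052 in HT-Flx, below all 4 WT-Flx values, with a change of -0.26 ± 0.09 (adjusted p = 0.387).

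In the other direction, Tcf20 (chr15:82808436-82987872), a nucleosome-binding coregulator paralogous to RAI1, was 2154, 3000, 3042 and 2460 in WT-Flx and 3250, 4122, 3166 and 3303 in HT-Flx. No mice overlapped between these groups, and the log2 change was 0.38 ± 0.13 (limma, adjusted p = 0.377). Med13l (chr5:118560679-118765438), which joins the CDK8 kinase module to Mediator, was 2463, 3511, 4009 and 3141 in WT-Flx and 3923, 3809, 4785 and 4283 in HT-Flx. WT-Flx 3 lay inside the HT-Flx range, and the change was 0.37 ± 0.14 (limma, adjusted p = 0.392). After removal of the length trend the changes were 0.27 for Tcf20 and 0.22 for Med13l, and without the 5 libraries with a high olfactory bulb score, which leaves 1 WT-Flx mouse that is assumed to vary like the other groups, they were 0.18 and 0.06. Of all 39 changes, 24 were above 0 with a median of 0.07, compared with 51.6% above 0 over all genes and 74.5% among the longest eighth, and after removal of the length trend 11 of 39 were above 0 with a median of -0.05.

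**Figure D4:**
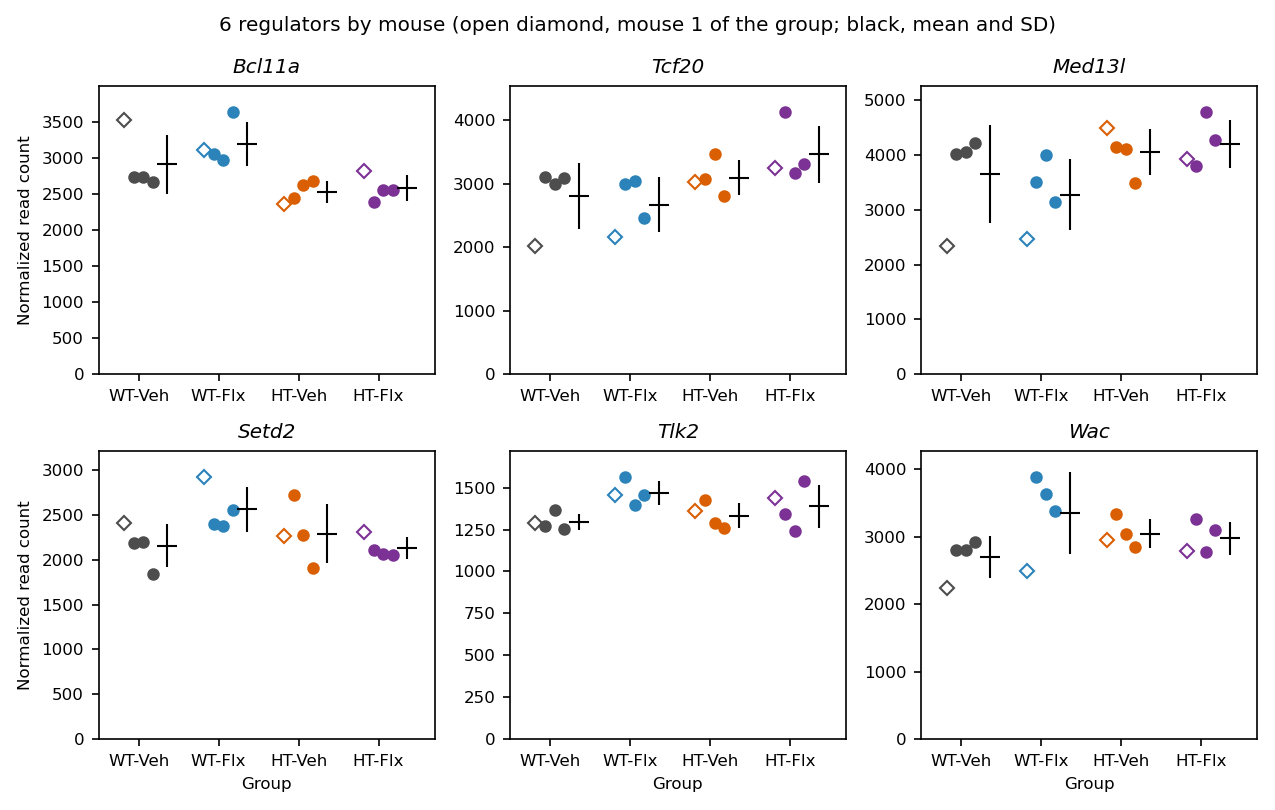
Normalized read counts of 6 regulators in the 16 mice, with mouse 1 of each group as an open diamond and the group mean and SD in black. Bcl11a is lower in every HT-Flx mouse (2395 to 2825) than in every WT-Flx mouse (2973 to 3635), Tcf20 is the reverse, and the open diamonds of WT-Veh and WT-Flx are the lowest mice of their groups for Tcf20, Med13l and Wac.

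Over both treatments, the genotype comparison with all 16 mice also gave 0 of 39 members past the adjusted threshold (limma, smallest adjusted p = 0.228), compared with 0.0569% of 17567 genes. An unadjusted p under 0.05 was reached by 3 of 39 (7.69%), compared with 11.7% of all genes. Bcl11a had the smallest p, with means of 2916 ± 409 (SD, n = 4) and 3192 ± 300 in WT-Veh and WT-Flx and of 2529 ± 156 and 2583 ± 178 in HT-Veh and HT-Flx, and a log2 change of -0.25 ± 0.07 (limma, adjusted p = 0.228). Its change was -0.20 without WT-Veh 1, -0.21 without WT-Veh 1 and WT-Flx 1, -0.32 after removal of the length trend and -0.15 when adjusted for the olfactory bulb score, with no adjusted p under 0.05 (limma) in any of these fits. Tcf20 and Med13l were 0.27 ± 0.10 (adjusted p = 0.366) and 0.28 ± 0.12 (adjusted p = 0.403). Without WT-Veh 1 and WT-Flx 1 they were 0.15 and 0.11, each with an unadjusted p above 0.05. Adjusted for the olfactory bulb score they were 0.14 and 0.09, also each with an unadjusted p (limma) above 0.05.

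The direction of the list as a whole turned when those 2 libraries or the trend on transcript length were removed. Of the 39 genotype changes, 31 were above 0 with a median of 0.09, beside 77.2% and a median of 0.11 over the 2193 genes with the longest transcripts and 51.1% and 0.00 over all genes. With WT-Veh 1 and WT-Flx 1 left out, 14 of 39 were above 0 and the median was -0.03. After removal of the length trend from all 16 mice, 14 of 39 were also above 0 and the median was again -0.03, and the values were 15 of 39 and -0.02 when the fit was adjusted for the olfactory bulb score. Ash1l, Kmt2a and Asxl3, whose changes were 0.24, 0.17 and 0.19 as deposited, were at 0.08, -0.03 and 0.03 after removal of the length trend. In that fit Bcl11a, Chd2 and Kmt2c, an H3K4 methyltransferase of enhancers, had an unadjusted p under 0.05 with negative changes and Tcf20 and Med13l with positive ones, that is, 5 of 39 (12.8%) compared with 10.9% of all genes.

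**Figure D5:**
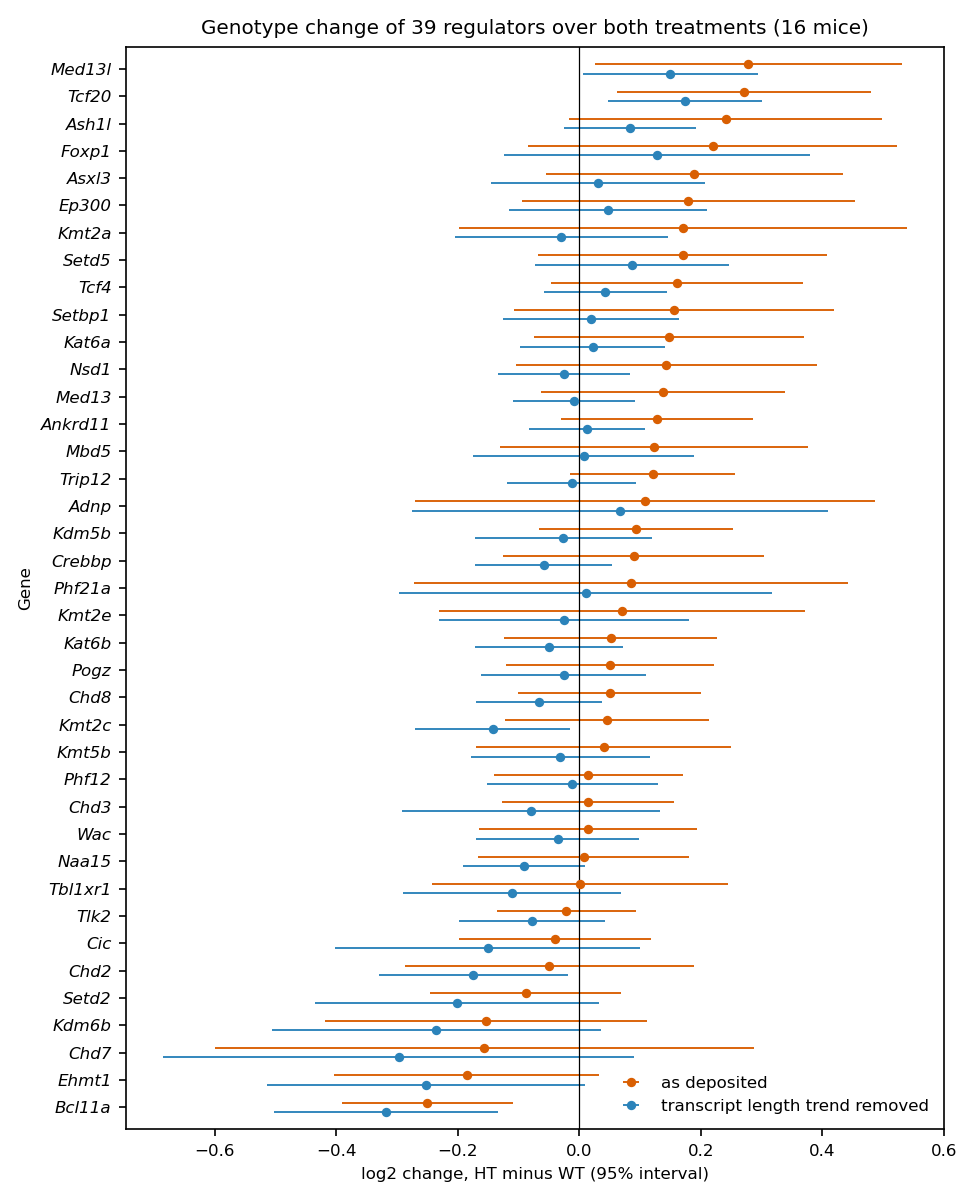
Log2 change between HT and WT mice over both treatments for the 39 regulators, as deposited (orange) and after removal of each library's transcript length trend (blue), with 95% intervals from limma. As deposited 31 of 39 points lie above 0 and after removal 14 of 39, while Bcl11a lies below 0 and Tcf20 and Med13l above 0 with intervals clear of 0 in both.

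Averaged over both genotypes, fluoxetine gave 0 of 39 members past the adjusted threshold (limma), as for all 17567 genes (0%), and 1 of 39 with an unadjusted p under 0.05 (2.56%), compared with 3.23% of all genes. This was Tlk2, at 0.12 ± 0.05 (adjusted p = 1.00), and Wac followed at 0.13 ± 0.09 (adjusted p = 1.00). Without the 5 libraries with a high bulb score, which leaves 1 WT-Flx mouse, Tlk2 was at 0.07. The median member change was 0.03, 26 of 39 were above 0, and 38 of 39 intervals lay within 0.5 of 0. Over all genes the median was 0.00, with 50.9% above 0. After removal of the length trend the members' median was 0.03, with 27 of 39 above 0.

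The interaction subtracts the fluoxetine change of WT mice from that of HT mice. It had 0 of 39 members past the adjusted threshold (limma) and 0 of 17567 genes (0%), and 1 of 39 members with an unadjusted p under 0.05, compared with 4.29% of all genes. Setd2 was this member, with an interaction of -0.34 ± 0.15 (adjusted p = 0.998). Its fluoxetine change was 0.25 in WT and -0.09 in HT mice, and the unadjusted p of the interaction was above 0.05 when adjusted for the bulb score (-0.34) and after removal of the length trend (-0.39). Wac followed at -0.33 ± 0.17 (adjusted p = 0.998), from 0.30 in WT and -0.03 in HT mice. For Wac, WT-Flx mice 2, 3 and 4, at 3887, 3642 and 3382, lay above all WT-Veh mice and WT-Flx 1, at 2486, did not. Its unadjusted p (limma) was under 0.05 when adjusted for the bulb score (-0.44, adjusted p = 0.870). The same held after removal of the length trend (-0.34, adjusted p = 0.862). Phf21a had the largest difference, at -0.48 with a 95% interval from -1.19 to 0.23. Over the list, 18 of 39 interactions were above 0 with a median of -0.02, compared with 50.3% above 0 over all genes. After removal of the length trend 12 of 39 were above 0 with a median of -0.06. The 4 pairwise comparisons share groups with each other, so their changes are set side by side and are not independent of one another.

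Partners and paralogs of the members, 82 genes of their complexes and families, were counted in the same way. None of the 82 passed the adjusted threshold in any of the 7 comparisons (limma, smallest adjusted p = 0.299), while 12 of 82 (14.6%) had an unadjusted p under 0.05 between HT-Flx and WT-Flx and 11 of 82 (13.4%) for genotype over both treatments, compared with 10.4% and 11.7% of all genes. Med12, the Mediator kinase module subunit that activates CDK8 and partner of Med13l, was 2090, 1763, 1554 and 1749 in WT-Flx and 1580, 903, 1208 and 1081 in HT-Flx, a log2 change of -0.61 ± 0.16 (adjusted p = 0.299), opposite in sign to Med13l in the same mice. Gps2, a subunit of the NCoR corepressor with Tbl1xr1, was 566, 516, 460 and 547 in WT-Flx and 470, 379, 348 and 400 in HT-Flx, a change of -0.39 ± 0.13 (adjusted p = 0.364). Over both treatments these genes were also the partners with the smallest p by genotype, with changes of -0.32 ± 0.11 for Med12 (adjusted p = 0.351) and -0.27 ± 0.10 for Gps2 (adjusted p = 0.380). Over both genotypes, fluoxetine gave 0.13 ± 0.06 for Psip1 and 0.17 ± 0.08 for Naa10, the catalytic partner of Naa15, at an adjusted p of 1.00. In WT mice Med12 was 0.37 ± 0.10 higher with fluoxetine and Psip1, a reader of H3K36 methylation, 0.26 ± 0.09 higher, both at an adjusted p of 1.00. Between HT-Veh and WT-Veh the smallest partner p-values were those of Naa50 (0.16 ± 0.06) and Tcf12 (0.18 ± 0.07), between HT-Flx and HT-Veh those of Tcf3 (-0.19 ± 0.10) and Naa10 (0.17 ± 0.09), and for the interaction those of Med12 (-0.58 ± 0.22) and Chd5 (0.27 ± 0.11), and in all 3 comparisons the adjusted p was at least 0.922.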

How the data were processed

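Medial prefrontal cortex RNA from 16 mice was analysed from 1 table of the whole series. The authors made stranded poly-A libraries, sequenced paired ends, estimated transcripts with Salmon (version 1.1.0, GC bias correction, GRCm38), used tximport to obtain gene values, and normalized these in DESeq2 (version 1.30.1). The deposited values are a signal, a normalized read count, with no whole reads recoverable, so the depth is unknown and count tests were not used. Salmon shares reads among transcripts by model, so paralogs with like sequence are estimated jointly.

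Groups came from the sample titles. Symbols and positions came from GENCODE (GRCm38), which matched 18411 of 18424 genes. Each comparison was fitted over all genes with limma (version 3.58.1, R 4.3.3, intensity trend) on log2(value + 1), after a filter of at least 10 in at least 4 mice of the fit, with two-sided p-values adjusted by Benjamini-Hochberg at 0.05. Pairwise comparisons used their 8 mice, and the others all 16. For genes with low values, the added 1 makes the log2 change too small. Whether mice came from separate litters is not given in the sources used here. The fits were tested on simulated data. Alternatives were pseudocounts of 0.1 and 8, no filter, upper quartile and quantile scaling, a replicate block, an olfactory bulb score, a 4-group fit, libraries left out and a lowess length correction (span 0.3).

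The members, partner and marker lists were chosen with earlier results of these data known. All members are named, with full values for those with an unadjusted p under 0.05 or otherwise the 2 with the smallest p in a comparison, and likewise 2 partners, and other members named for illustration were chosen after their values were seen. One marker of the glutamatergic list is not reported here. Level per kb divides the mean normalized count by the longest annotated transcript.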

Additional observations from a re-analysis of the deposited data

Results flagged for a closer look

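The lowest or highest mouse of a group stood apart from the other 3 by Dixon's criterion (95% level) in 23 of 160 groups tested. Chance flags about 1 in 20 for a single measure. The measures here share the same mice and correlate, so the flags are not independent and cannot be weighed against that rate. The rate of flags over all genes was not determined. Of the 23 flagged measures, 14 were in WT-Veh 1, 4 in WT-Flx 1, 3 were those of HT-Veh 4, and the last 2 came from HT-Flx 2.

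WT-Veh 1 was low for 13 of its measures. Adnp was 907 (1501 to 1649 in the other 3 mice), Ash1l 3134, Kmt2a 3661, Kmt2e 2143 (4123 to 4509), Setd5 2616 (4402 to 4452) and Crebbp 1689. Kat6a was 1580, Ankrd11 5482, Phf12 1394, Med13l 2334 (4027 to 4215), Tcf20 2021 and Wac 2241. The mean log2 level over the 39 members was 10.9 in this mouse and 11.29 to 11.35 in the others of its group. Bcl11a was high there, at 3527 (2667 to 2738).

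In WT-Flx 1, Chd7 was 231 (593 to 712), Chd8 2768, Kmt2c 2637 and Ep300 1552, all low. In HT-Veh 4, Ash1l was 4987, Crebbp 2254 and the mean log2 member level 11.2 (11.33 to 11.35), all low. In HT-Flx 2, Setd5 was 4694 (4044 to 4117) and Tcf20 4122 (3166 to 3303), both high. The mice WT-Veh 1, WT-Flx 1 and HT-Veh 4 had olfactory bulb scores of 9.49, 7.37 and 7.84, and the longest eighth of transcripts had median log2 deviations of -0.34, -0.35 and -0.05 there. In HT-Flx 2 the score was 5.35 and the deviation 0.07. The part of these measures in the values was not tested.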

How the results depend on the processing

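No member passed an adjusted p of 0.05 (limma) in any of the 7 comparisons under any alternative, with smallest adjusted p-values between 0.148 and 0.859 over the alternatives of a comparison, and none of the 17 changes of members named by the rule changed its direction. The median member change crossed 0 in all 7 comparisons, for example for HT-Veh versus WT-Veh (-0.03 to 0.17) and the interaction (-0.12 to 0.09). The counts at an unadjusted p under 0.05 and the calls over all genes moved with the settings, and the cause was not tested. Counts are given first for members at an unadjusted p under 0.05 and then for all genes at an adjusted p under 0.05. At the same unadjusted p, the members' share was above that of all genes in 33 of 157 fits and below it in 124. The largest excesses were 20.5% of members compared with 10.5% of genes for HT-Veh versus WT-Veh adjusted for the bulb score, 20.5% and 13.5% for HT-Flx versus WT-Flx without WT-Flx 3, and 10.3% and 3.65% for HT-Flx versus HT-Veh adjusted for that score.

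Adjusted for the olfactory bulb score, the members numbered 8 for HT-Veh versus WT-Veh, 4 for HT-Flx versus HT-Veh, 1 for WT-Flx versus WT-Veh, 0 for HT-Flx versus WT-Flx, 1 for genotype and 2 for the interaction, and all genes 19, 0, 1, 0, 2 and 0. The score did not overlap between HT-Flx and WT-Flx mice, so that fit cannot separate it from genotype. In the same order, 10.5%, 3.65%, 5.91%, 2.22%, 6.12% and 5.64% of all genes had an unadjusted p under 0.05. The members' shares were 20.5%, 10.3%, 2.56%, 0%, 2.56% and 5.13%. Without the 5 libraries with a high score, which leaves WT-Flx with 1 mouse in a fit of 4 groups, the members numbered 1, 3 and 1 in the first 3 of these and 2 each for fluoxetine and the interaction, and all genes 0 for HT-Veh versus WT-Veh and 2 each for WT-Flx versus WT-Veh, HT-Flx versus WT-Flx, fluoxetine and the interaction. With the transcript length trend removed, an alternative chosen after seeing the data, the members numbered 1 for HT-Veh versus WT-Veh, 5 for genotype and 0 for fluoxetine, and all genes 1 for WT-Flx versus WT-Veh. The members' shares were 2.56%, 12.8% and 0%, compared with 5.27%, 10.9% and 4.14% of all genes. Without WT-Veh 1 and WT-Flx 1, also chosen after seeing the data, the members numbered 3 for fluoxetine and 2 for the interaction, and all genes 20 for genotype. Upper quartile rescaling gave 1 member for WT-Flx versus WT-Veh, and it and quantile normalization gave 0 for fluoxetine and 2 for the interaction. The members' shares were 2.56%, 0% and 5.13%. Those of all genes were 3.96%, then, in the same order, 3.20% and 3.27% for fluoxetine and 4.22% and 4.20% for the interaction. For all genes, HT-Flx versus WT-Flx gave 4 with a pseudocount of 0.1, with quantile normalization and with all 4 groups in the fit, where HT-Veh versus WT-Veh gave 0.

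Replicate numbers were shared by the groups, and the sources used here do not say that the numbers pair the mice. Deviations of same-numbered mice had mean correlations of 0.011, 0.0258, 0.102 and 0.0253 in the 4 pairwise comparisons. Each comparison had a pair below 0, and at most 2 of 4 mice correlated best with their own number. The highest same-numbered correlation was 0.31, between WT-Flx and WT-Veh, and WT-Veh 1 and WT-Flx 1 were both low for most members. These correlations cannot decide whether the numbers pair the mice. The replicate block gave 4 members for WT-Flx versus WT-Veh, 5 for genotype, 0 for fluoxetine and 2 for the interaction, and all genes 0 for HT-Veh versus WT-Veh and 17 for genotype. These members were 10.3%, 12.8%, 0% and 5.13%, compared with 7.35%, 14.7%, 3.99% and 5.37% of all genes at the same unadjusted p.

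As each mouse was left out, members ranged from 0 to 2 for HT-Veh versus WT-Veh (2 without WT-Veh 4 or HT-Veh 4) and HT-Flx versus HT-Veh (2 without HT-Veh 4), 0 to 3 for WT-Flx versus WT-Veh (0 without WT-Veh 2 or 4 or WT-Flx 4), 3 to 8 for HT-Flx versus WT-Flx (8 without WT-Flx 3), 2 to 6 for genotype (6 without WT-Flx 3), and 0 to 3 for fluoxetine (3 without WT-Flx 1) and the interaction (3 without WT-Veh 1). All genes ranged from 0 to 2 for HT-Veh versus WT-Veh (0 without any 1 of WT-Veh 3 and 4 and HT-Veh 1, 2 and 3), 0 to 4 for WT-Flx versus WT-Veh (4 without WT-Veh 1), 0 to 23 for HT-Flx versus WT-Flx (23 without WT-Flx 3, 0 without WT-Flx 1, 2 or 4) and 1 to 16 for genotype (1 without WT-Flx 2 or 3, 16 without WT-Flx 1). At the same unadjusted p, the members' highest counts were 15.4%, compared with 14.3% of all genes, for genotype. They were 7.69% and 6.10% for fluoxetine, 7.69% and 9.62% for the interaction and 5.13% and 3.92% for HT-Flx versus HT-Veh. For WT-Flx versus WT-Veh they were 7.69%, below 10.3% without WT-Veh 1 and 8.47% without WT-Flx 1. For HT-Veh versus WT-Veh they were 5.13%, below 5.32% without WT-Veh 4 and 6.09% without HT-Veh 4. The depth is unknown, so no limit from counting error can be given, and the SD between 4 mice sets the precision.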

Other observations

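Scores of marker lists, each the mean log2(value + 1) of its genes, are given as ranges over the 16 mice. The scores of GABAergic neurons (8 genes) were 10.8 to 11.2, with the highest value in WT-Veh 1, of oligodendrocytes 11.4 to 12.3, of astrocytes 12.3 to 12.8, of microglia 9.89 to 10.2 and of endothelial and mural cells 9.85 to 10.2. The score of 8 striatal neuron markers ranged from 8.0 to 10.6, with the highest value in HT-Veh 4, and that of 8 immediate early genes from 8.91 to 10.7. The score of the 7 glutamatergic markers named in the report was 12.05 in WT-Veh 1 and 12.3 to 12.6 in the other mice. The part of these scores in the members' values was not tested.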
